A study of Mus musculus with 3 samples.

Results

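The genes described here are 10 interferon-gamma-induced GTPases, chosen by name from the 32285 genes of the deposited matrices. They comprise 5 guanylate-binding proteins (Gbp2, Gbp2b, Gbp3, Gbp5 and Gbp7) and 5 immunity-related GTPases (Igtp, Irgm1, Irgm2, Iigp1 and Ifi47), and all 10 were found and detected in each library. Guanylate-binding proteins are large GTPases that coat the membranes of intracellular pathogens and of the vacuoles around them, and some members feed into inflammasome activation. Immunity-related GTPases act on the same vacuoles: Iigp1 is an effector that loads onto them and breaks them, whereas Irgm1, Irgm2 and Igtp sit on the cell's own membranes and hold the effectors in check. The usual route to their transcription runs from interferon gamma (Ifng) through its receptor chains Ifngr1 and Ifngr2 and the kinases Jak1 and Jak2 to GAS sites in DNA, and through Irf1, which binds interferon-stimulated response elements (ISRE). Type I interferons reach many of the same genes through ISRE sites.

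Immune cells of whole mouse aortas, adventitia included, were sorted as live CD45+ cells and profiled by droplet sequencing of transcript 3′ ends, with 1 library per group. Every group was ApoE-/- on the C57BL/6J background: the control library (Ctrl) had no stated addition, the HHcy library came from mice given homocysteine at 1.8 g/L in their drinking water for 4 weeks, and the WD library from mice kept for 4 weeks on a western diet. Mouse age and the number of mice per library were not given in the sources used here, and the control library served in both comparisons with Ctrl. The question set by the series is how these 3 atherosclerosis models differ in their immune cells, under a title on B and T cells in homocysteinemia.

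The libraries held 7512 (Ctrl), 9753 (HHcy) and 8557 (WD) barcodes and between 66789257 and 105180370 unique molecular identifiers (UMIs, the counted transcript molecules), and 5369, 6376 and 5302 cells were used after filtering. Apoe, the disrupted gene, was at 16.3 and 19.3 CPM (UMIs of the gene scaled to one common total, the usual CPM unit) in the Ctrl and WD libraries but at 374 CPM in the third, which goes against its label. It is therefore called the library labelled HHcy, and its macrophage and monocyte results are also given without the cells of 10 or more Apoe UMIs. Pairs of libraries shared 20 to 24 cell barcodes. All 3 libraries carried the 10 GTPases at a like overall level, with 244 CPM in Ctrl, 230 CPM in the library labelled HHcy and 291 CPM in WD over all barcodes. Because each group was 1 library, no test between groups was possible. A gene is called higher or lower where its CPM, summed over the cells of a class, differed by at least 1.5-fold with a 95% counting interval of the ratio off equality, among genes with at least 30 UMIs over the libraries compared. These intervals cover counting error only, not the spread between mice or preparations.

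Promoters of these genes, taken from the RefSeq table (GRCm38.p6), are shown first. Of the 9 members searched, 8 hold an ISRE core, GAAANNGAAA on either strand, within 250 bases before the start site. The same letters stood before 3.46% of all 27025 genes in the table. A GAS motif, TTCNNNGAA, stood before 4 of the 9 (Gbp5, Gbp7, Igtp and Irgm2) against 8.13% of all genes. Ifi47 held neither motif in this window, and Iigp1 was left out of the search. Gbp2, Gbp7 and Irgm1, the 3 members called higher in neutrophils in both comparisons with Ctrl, are shown with Gbp3, which lies between the former 2, each on the strand of its gene and with the ISRE core (on either strand) in capitals. The Gbp2 stretch is chr3:142620594-142620623, of which the annotation (GENCODE M21) places a part in a Gbp2 exon. The Gbp7 stretch is chr3:142530273-142530302 and the Gbp3 stretch chr3:142559989-142560018, both outside annotated genes. The Irgm1 stretch is chr11:48871425-48871454 on the minus strand, inside an Irgm1 exon.
Gbp2: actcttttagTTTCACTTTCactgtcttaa
Gbp7: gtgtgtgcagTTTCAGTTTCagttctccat
Gbp3: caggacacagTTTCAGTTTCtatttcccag
Irgm1: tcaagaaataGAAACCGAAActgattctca
The Gbp3 and Irgm1 windows each hold a second, overlapping match. The Gbp genes lie in a row on chromosome 3, and Igtp and Irgm2 lie next to each other on chromosome 11, where their annotated spans overlap on the same strand. Igtp and Irgm2 share a stretch in which a GAS motif stands directly before the ISRE core, both in capitals, at chr11:58199501-58199541 for Igtp and chr11:58214892-58214932 for Irgm2, plus strand.
Igtp: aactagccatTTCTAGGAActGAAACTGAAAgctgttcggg
Irgm2: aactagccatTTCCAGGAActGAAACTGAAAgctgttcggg
These stretches are identical at 40 of 41 bases, while the full windows of 250 bases are identical at 68.9% of 286 aligned columns. A motif match is a description of letters, and binding was not measured. Reads of each member could be told apart at the 3′ end: of the 441 words of 60 bases in the last 500 bases of each member's transcript, 0 were shared with another gene.

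Cells were grouped into 12 classes by marker genes, and each class or subset name means cells that resemble that type by its markers. Among the 5 classes with the most cells in all libraries combined (B, T, macrophage/monocyte, conventional dendritic and neutrophil), each gene had its own order of levels. T cells had the highest mean over the libraries for Gbp7 (87.4 CPM, range 75.4 to 105), Igtp (52.6 CPM, 48.7 to 55.8) and Ifi47 (86.3 CPM, 69.8 to 96.2), and for these 3 genes the range did not overlap that of the class ranked next. Iigp1 was highest in T cells (27.9 CPM) and macrophages/monocytes (25.6 CPM), whose ranges overlapped. The T cell mean was 18.4 CPM without 1 WD cell that held 24 Iigp1 UMIs, which puts macrophages/monocytes first. Both classes stood clear of conventional dendritic cells (6.00 CPM), neutrophils (2.32 CPM) and B cells (2.24 CPM). Macrophages/monocytes led for Gbp2b (14.8 CPM, 10.4 to 18.4), again without overlap with the next class, B cells (5.87 CPM, 4.44 to 7.99). They also led for Gbp3, Gbp5, Irgm1 and Irgm2, though with ranges overlapping the next class. Gbp2 ranked highest in neutrophils, at a mean of 103.6 CPM, but the range there ran from 29.3 to 215 CPM and overlapped that of every other class. Neutrophils were thus the class in which the libraries differed most for this gene.

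**Figure D1:**
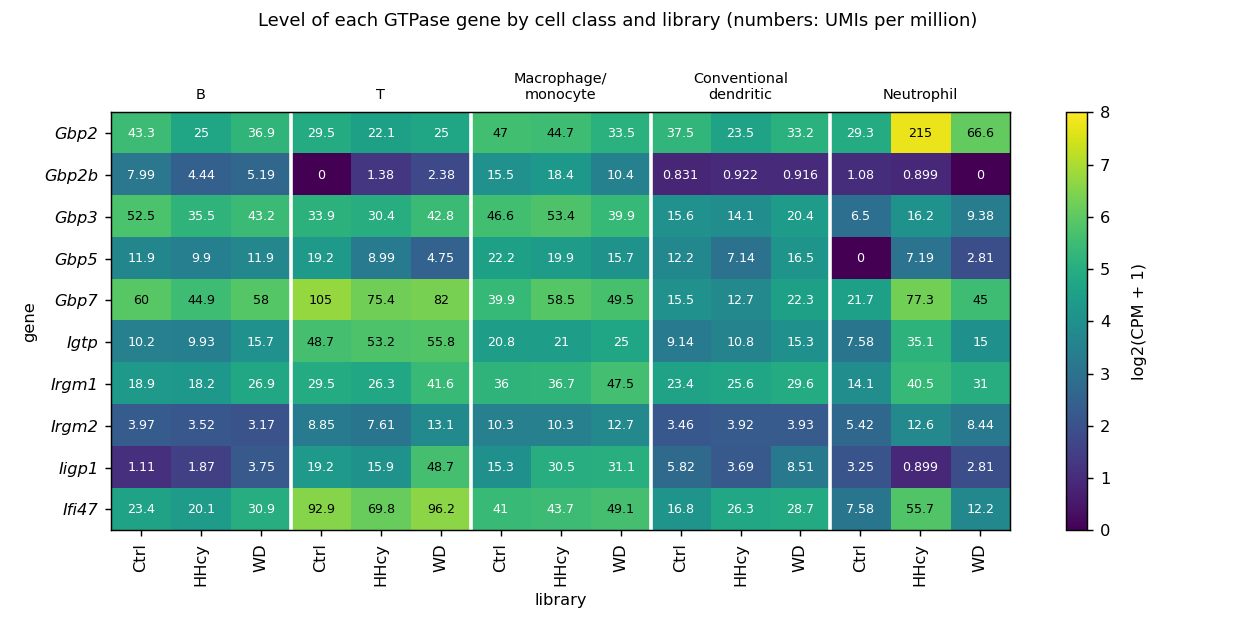
Level of the 10 GTPase genes (rows, CPM of the class total) in 5 cell classes of the 3 libraries (columns), with color showing log2(CPM + 1). Gbp2 in neutrophils of the library labelled HHcy is the brightest cell, at 215 CPM against 29.3 CPM in Ctrl.

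Within the classes, single subsets carried the highest mean level over the libraries among the 20 subsets with cells enough to rank. Gbp2b was at 123, 132 and 123 CPM (Ctrl, library labelled HHcy, WD) in a macrophage sub-cluster led by Prg4, Saa3 and Alox15. Gbp5, a guanylate-binding protein tied to inflammasome assembly, was highest in mature dendritic cells, at 60.8, 32.9 and 47.8 CPM. Gbp7 and Ifi47 were highest in a T cell sub-cluster led by the cytotoxic genes Gzma and Gzmb. It was left unnamed because its marker scores for NK cells (1.37) and CD8 T cells (1.36) were close. Igtp was highest in a T cell sub-cluster led by Tnfrsf4 and Foxp3, a regulatory T cell factor. Iigp1 was at a mean of 84.5 CPM there, which without the same WD cell was 33.7 CPM, under the 65.0 CPM of resident-like macrophages. Irgm2 was highest in resident-like macrophages and Irgm1 in classical monocytes. Gbp2 was highest in a neutrophil sub-cluster led by Wfdc17, Ifitm1 and Ifit1. Only for Gbp2b did the range over the libraries stand clear of that of the subset ranked next. Gbp7 was at 103 to 238 CPM in the Gzma and Gzmb cells, against 92.3 to 153 CPM in the Tnfrsf4 and Foxp3 cells. For Gbp2 the range was 99.1 to 387 CPM in that neutrophil sub-cluster, against 91.8 to 191 CPM in mature dendritic cells.

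The members did not all vary together. Over 18 class-by-library sums with at least 50 cells, Pearson correlation (log2(CPM + 10)) of each member with the mean of the other members was highest for Irgm1 (0.81) and lowest for Gbp2b (0.22). The closest pair was Iigp1 and Irgm2, at 0.88. Among the 10 genes most like the members' mean, of 9535 compared, were Tmem50a (0.90), Nav2 (0.84), Syt11 (0.83), Peak1 (0.80), Fkbp5, Ski, Retreg2, Spats2 and Zbtb2, the last at 0.78. These sums share libraries and depth, so the coefficients are descriptions.

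Among these 5 classes, neutrophils showed the largest difference between libraries. Per library, 89 (Ctrl), 1026 (library labelled HHcy) and 206 (WD) member UMIs were counted in 178, 385 and 248 neutrophils, which gave 96.4, 461 and 193 CPM for the sum of the 10 genes. Gbp2 was at 29.3 CPM (95% Poisson interval 19.3 to 42.6) in Ctrl, 215 CPM (196 to 235) in the library labelled HHcy and 66.6 CPM (52.0 to 84) in WD. The 3 intervals did not overlap, and the library labelled HHcy was highest. Its log2 ratio to Ctrl was 2.88 (2.32 to 3.49). Ifi47, an interferon-inducible GTPase of the immunity-related family, was at 7.58, 55.7 and 12.2 CPM, a log2 ratio of 2.88 (1.79 to 4.22) from 7 and 124 UMIs. Igtp was at 7.58, 35.1 and 15.0 CPM. Its ratio for the library labelled HHcy was 2.21 (1.10 to 3.57). Gbp7, which has been tied to the assembly of the oxidase of phagocytes, was at 21.7, 77.3 and 45.0 CPM, with a log2 ratio of 1.84 (1.16 to 2.58). Irgm1 followed at 14.1, 40.5 and 31.0 CPM (1.52, 0.68 to 2.49), and Gbp3 at 6.50, 16.2 and 9.38 CPM (1.32, 0.060 to 2.85). These 6 of the 7 members with 30 UMIs were called higher in the library labelled HHcy, and none lower. Gbp3, Igtp, Irgm2 and Ifi47 had only 6, 7, 5 and 7 UMIs in Ctrl. They passed the limit of 30 UMIs through their 36, 78, 28 and 124 UMIs in the library labelled HHcy. Their place among the 7 members compared, and so in the median, is no result apart from those levels. Over all 5558 genes compared, 5.87% were called higher and 19.3% lower, and the median log2 ratio was -0.22 against 1.84 for the 7 members. Relative to that median the ratio of Gbp2 was 3.10. Irgm2 was at 5.42, 12.6 and 8.44 CPM and its interval reached equality (1.22, -0.17 to 2.95).

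The 3 remaining members had too few UMIs in neutrophils to be compared. Gbp5 had 0 UMIs in Ctrl (up to 3.25 CPM is compatible with that), 16 UMIs (7.19 CPM) in the library labelled HHcy and 3 in WD. Iigp1 had 3, 2 and 3 UMIs, and Gbp2b 1, 2 and 0. Neither of the latter showed a level in neutrophils that could be told from the floor of 3 UMIs.

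In WD neutrophils the differences were smaller. Of the 3 members with 30 UMIs against Ctrl, all 3 were called higher: Gbp2 (1.19, 0.53 to 1.88), Irgm1 (1.14, 0.17 to 2.19) and Gbp7 (1.06, 0.28 to 1.89), with 5.97% of all genes called higher. Irgm1 had 13 UMIs in Ctrl and passed that limit through its 33 UMIs in WD. Set directly against WD, the library labelled HHcy was higher for 4 of 7 members, with 2.82% of all genes called higher. These were Ifi47 (2.19), Gbp2 (1.69), Igtp (1.22) and Gbp7 (0.78).

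The Gbp2 UMIs were uneven between cells. A Gbp2 UMI was seen in 11.2% of Ctrl neutrophils, 33.2% of those of the library labelled HHcy and 19.4% of those of WD, at median depths of 4324, 4716 and 3917 UMIs. With each cell thinned to 1000 UMIs, which left out 7, 7 and 13 shallower cells, the shares were 2.92%, 13.5% and 5.53%. No class lacked Gbp2, so no background share could be set for it. The most Gbp2 UMIs in 1 cell was 28, in the library labelled HHcy, and without the top cell of each library the log2 ratio was 2.95 (2.36 to 3.61).

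The neutrophils split into 3 sub-clusters beside cycling cells. The one led by Wfdc17, Ifitm1 and Ifit1 held 28.1% of Ctrl neutrophils, 48.6% of those of the library labelled HHcy and 53.6% of those of WD, and 77.8%, 87.2% and 66.2% of the neutrophil Gbp2 UMIs. Ifit1 and Ifitm1 are themselves interferon-induced and Gbp2 was among the 10 leading genes of this sub-cluster, so its size is no result apart from the levels, although the GTPases were kept out of the clustering genes. Within this sub-cluster Gbp2 was at 103 CPM in Ctrl, 387 CPM in the library labelled HHcy and 99.1 CPM in WD. The log2 ratio for the library labelled HHcy was 1.91 (1.28 to 2.62) there, and 4 of 5 members were called higher (Gbp2, Gbp7, Igtp and Ifi47), with 5.99% of all genes. Igtp and Ifi47 had 3 and 2 UMIs in Ctrl there, and passed the limit of 30 UMIs through 53 and 98 in the library labelled HHcy. For WD the Gbp2 ratio was -0.054 (-0.82 to 0.76), and none of the 2 members compared was called, against 4.19% of all genes called higher. The difference of WD neutrophils in Gbp2 was thus not seen within this sub-cluster. In the sub-cluster led by Bcl2a1b and Csf1, Gbp2 was again higher in the library labelled HHcy (2.57, 0.94 to 4.89, beside 6.35% of all genes). It was the only member with 30 UMIs, a limit it passed through that library. Gbp2 was at 16.9 CPM in Ctrl, 99.87 CPM in the library labelled HHcy and 88.3 CPM (53.9 to 136) in WD there, from 3, 50 and 20 UMIs, so WD was also above Ctrl, and the ratio of the former library to WD was 0.18. In cells led by the granule genes Ltf, Camp and Ngp, which mark immature neutrophils, the 10 genes summed to 52.1, 90.6 and 67.3 CPM. Giving both libraries the same mix of sub-clusters gave Gbp2 a ratio to Ctrl of 1.97 in the library labelled HHcy and 0.45 in WD.

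**Figure D2:**
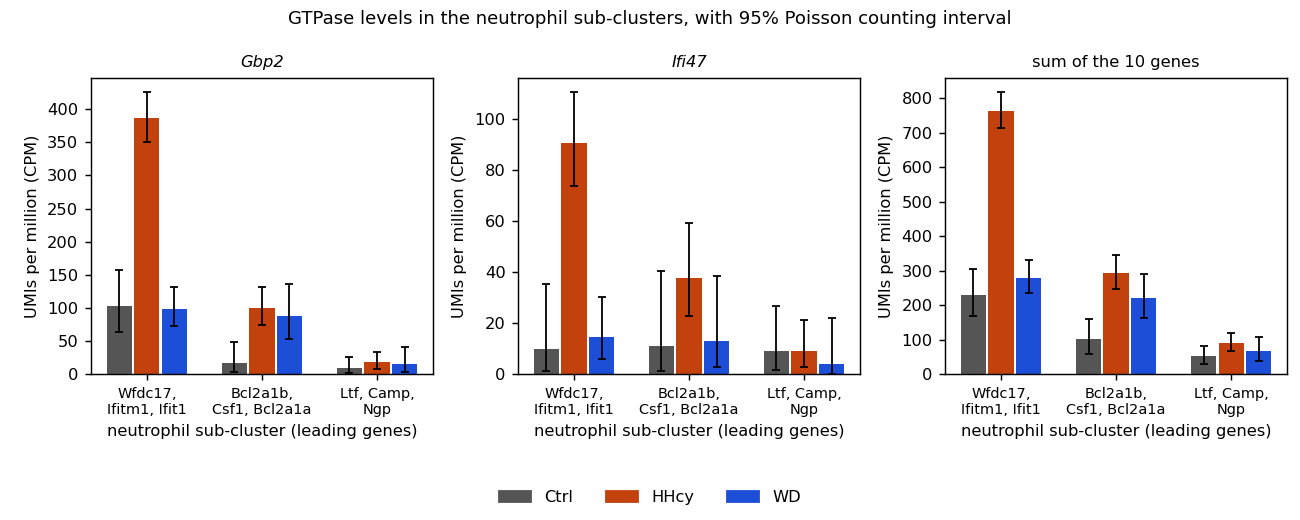
Levels of Gbp2, Ifi47 and the sum of the 10 genes (CPM, bars with 95% Poisson intervals) in 3 neutrophil sub-clusters of each library. In the sub-cluster led by Wfdc17, Ifitm1 and Ifit1 the library labelled HHcy reached 387 CPM of Gbp2, against 103 CPM in Ctrl and 99.1 CPM in WD.

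Markers of other cell types in the neutrophils were measured beside this result. All 19 macrophage/monocyte markers were detected, summing to 7710 CPM in Ctrl, 9637 CPM in the library labelled HHcy and 8548 CPM in WD, against 255951, 257946 and 211071 CPM for the neutrophil markers. B cell markers summed to 79.7 to 146 CPM and T cell markers to 14.1 to 26.5 CPM. No neutrophil had 10 or more Apoe UMIs in Ctrl or the library labelled HHcy, so leaving out such cells could not change the ratio and tells nothing about it. Apoe was at 3.25 CPM in the neutrophils of Ctrl, 40.0 CPM in those of the library labelled HHcy and 9.38 CPM in those of WD. Its bearing on the GTPases was not tested. Barcodes with markers of more than 1 lineage, left out as doublets, were numerous: 78 of 260, 298 of 688 and 243 of 494 barcodes of neutrophil clusters when they were kept. In them the 10 genes stood at 287, 272 and 277 CPM. With these doublets kept, the log2 ratio of Gbp2 for the library labelled HHcy was 0.94 and the median of the members 0.43, and for WD the Gbp2 ratio turned to -0.27, so the size of the former and the direction of the latter depended on their removal. The part of other cells' RNA in the result was not tested further.

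In B cells the 10 genes summed to 233 CPM in Ctrl, 173 CPM in the library labelled HHcy and 236 CPM in WD. Gbp2 was at 43.3 CPM (40.5 to 46.3), 25 CPM (23.3 to 26.9) and 36.9 CPM (33.3 to 40.8), from 862, 761 and 384 UMIs. The library labelled HHcy was lowest, with a log2 ratio to Ctrl of -0.79 (-0.93 to -0.65). Gbp2b was at 7.99, 4.44 and 5.19 CPM, a log2 ratio of -0.85 (-1.19 to -0.51). Those 2 of 10 members were called lower, with 7.24% of all genes, and Iigp1 was called higher (0.76, 0.028 to 1.54), with 3.82% of all genes. Iigp1 rested on 22 UMIs in Ctrl and 57 in the library labelled HHcy, or 1.11 and 1.87 CPM. Gbp3 (-0.57) and Gbp7 (-0.42) did not reach 1.5-fold. Without a small unnamed sub-cluster led by Retnla and F13a1 among others, genes known from macrophages, Iigp1 was no longer called (0.80, -0.0057 to 1.67). The median over the 10 members was -0.24 and that over all genes -0.023.

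In B cells of WD, Iigp1 was at 3.75 CPM from 39 UMIs, a log2 ratio of 1.76 (0.97 to 2.59), and Igtp was at 15.7 CPM against 10.2 CPM in Ctrl (0.62, 0.31 to 0.92). Those 2 of 10 were called higher, with 2.82% of all genes, though Igtp (0.56) was not without the sub-cluster led by Retnla and F13a1. Gbp2b was called lower (-0.62, -1.09 to -0.17), with 1.7% of all genes. Against WD, the library labelled HHcy was lower for Iigp1 (-1.0), Igtp (-0.66) and Ifi47 (-0.62), 3 of 10 members, with 6.69% of all genes.

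The make-up of the B cells also differed between the libraries, and most Gbp2 and Gbp2b UMIs lay in one of their subsets. B1 cells, innate-like B cells of the body cavities and adventitia, were 48.7% of the Ctrl B cells, 18.4% of those of the library labelled HHcy and 37.5% of those of WD, while naive follicular B cells were 31.6%, 68.5% and 37.5%. B1 cells carried 82.9%, 68.3% and 76.3% of the Gbp2 UMIs of B cells and 91.2%, 88.1% and 81.5% of those of Gbp2b. Within B1 cells Gbp2 was at 57.4, 60.1 and 53.1 CPM and Gbp2b at 11.6, 13.7 and 8.0 CPM. In B1 cells the library labelled HHcy had log2 ratios to Ctrl of 0.065 (-0.10 to 0.23) for Gbp2 and 0.24 (-0.12 to 0.60) for Gbp2b, and none of 9 members was called there, with 2.66% of all genes called higher and 2.44% lower. In naive follicular B cells Gbp2 was at 15.5, 10.5 and 17.5 CPM. There 2 of 9 members were called lower in the library labelled HHcy, Gbp5 (-0.95) and Gbp3 (-0.61), with 4.7% of all genes. For WD, Igtp was called higher within B1 cells (0.61, 1 of 9, with 2.28% of all genes) and Gbp7 within naive follicular B cells (0.62, 1 of 8, with 2% of all genes). Against WD, the naive follicular B cells of the library labelled HHcy were lower for 6 of 9 members, with 4.33% of all genes, from Ifi47 (-1.11, 17.6 against 37.9 CPM) to Gbp7 (-0.65). With the same mix of sub-clusters in both libraries, the B cell ratio was -0.12 for Gbp2, 0.10 for Gbp2b and 0.19 for Gbp7. The median depth was 10564 UMIs per B1 cell and 5293 per naive follicular B cell in Ctrl.

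**Figure D3:**
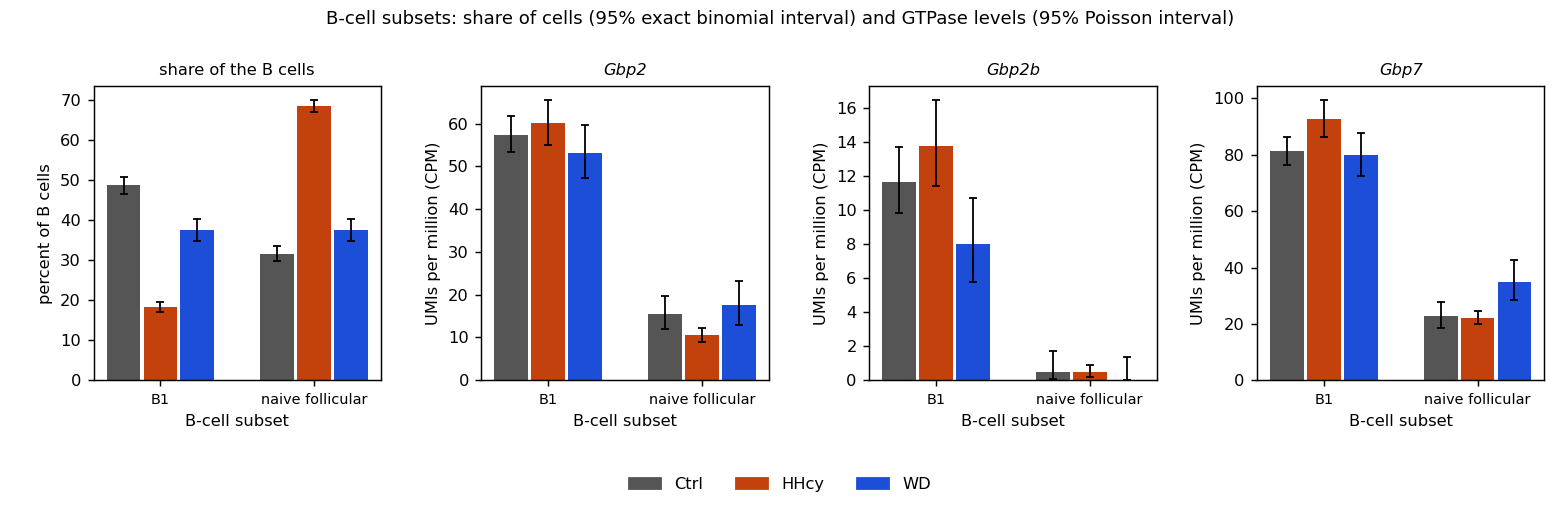
Share of B1 and naive follicular cells among the B cells (percent, with exact binomial intervals) and levels of Gbp2, Gbp2b and Gbp7 within them (CPM, with Poisson intervals), by library. The share of B1 cells ran from 18.4% to 48.7%, while Gbp2 within B1 cells stayed between 53.1 and 60.1 CPM.

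In macrophages/monocytes 1 of 10 members, Iigp1, was called in either comparison with Ctrl. Iigp1, the vacuole-breaking effector, was at 15.3 CPM (13.5 to 17.1) in Ctrl, 30.5 CPM (27.5 to 33.7) in the library labelled HHcy and 31.1 CPM (29.2 to 33.1) in WD. The latter 2 overlapped each other and stood above Ctrl. The log2 ratios were 1.0 (0.78 to 1.23), beside 2.76% of all genes called higher, and 1.03 (0.84 to 1.22), beside 3.4%, and none of the 10 was called lower, with 2.69% and 3.7% of all genes. Without the 189 cells of 10 or more Apoe UMIs in the library labelled HHcy and 1 in Ctrl, the former was 0.87. Gbp7 was at 39.9, 58.5 and 49.5 CPM and did not reach 1.5-fold (0.55 for the library labelled HHcy). The member medians were 0.059 and 0.26. Set against WD, the library labelled HHcy was higher for Gbp2b (0.83, 0.58 to 1.08), 1 of 10 members with 3.66% of all genes.

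Further members were called within the macrophage and monocyte subsets. The set named foamy macrophages, after lipid-laden cells of plaques, joined 3 sub-clusters and had the 10 genes at a summed level of 140 CPM in Ctrl, 279 CPM in the library labelled HHcy and 242 CPM in WD. Iigp1 was at 2.74 CPM (1.41 to 4.78) in them in Ctrl, 18.6 CPM (13.2 to 25.6) in the library labelled HHcy and 16.1 CPM (13.9 to 18.4) in WD, from 12, 38 and 204 UMIs. Both other libraries stood clear of Ctrl, with log2 ratios of 2.77 (1.80 to 3.84) and 2.55 (1.72 to 3.53). Gbp2 was at 13, 32.3 and 23.5 CPM (1.32 and 0.85). Gbp5 was at 8.66, 19.6 and 14.7 CPM (1.18 and 0.77). Ifi47 was at 18.2, 28.4 and 41.2 CPM (0.64 and 1.18). For the library labelled HHcy 8 of 9 members were called higher, the exception being Irgm2 (0.74, -0.38 to 1.83), with 3.34% of all genes. In that comparison Iigp1 had 12 UMIs in Ctrl and passed the limit of 30 UMIs through its 38 in the library labelled HHcy. Its place among those 9 members is therefore no result apart from its levels. For WD 8 of 9 were called higher, the exception being Gbp3 (0.16), with 2.99% of all genes. Both comparisons share the Ctrl cells, of which there were 365, against 182 and 961. The set was 17.9% of the class in Ctrl, 14.4% in the library labelled HHcy and 35% in WD. Without Apoe-rich cells (13 and 1 left out) the median over the 8 members compared was 0.91 in the library labelled HHcy.

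The 3 sub-clusters of this set took different shares of it in each library. The one led by Spp1 and Ms4a7 was 53.4% of it in Ctrl, 54.4% in the library labelled HHcy and 70.1% in WD, the one led by Spp1 and Gpnmb 31.5%, 17% and 26.8%, and the one led by Mmp13 and H2-M2 15.1%, 28.6% and 3.02%. Gpnmb, a marker of lipid-laden macrophages, was at 645 to 823 CPM in the second, at 28 to 206 CPM in the first and at 0 to 6.21 CPM in the third, against 13.2 CPM in resident-like macrophages. Spp1, Fabp5, Lgals3 and Ctsd were likewise highest in the second. Other markers of the set differed: Trem2 was highest in the first (487 to 741 CPM) and Mmp12 in the third (1739 to 2139 CPM). Cd9 had no one order over the libraries. Within the Spp1 and Ms4a7 cells, 8 of 8 members were called higher in the library labelled HHcy, with 3.94% of all genes, and 8 of 9 in WD, with 3.74%. Gbp2 was at 8.04, 37.8 and 22.9 CPM in them (2.23 and 1.51) and Iigp1 at 5.21, 28.8 and 24.2 CPM (2.47 and 2.21). Members this low in Ctrl could pass the limit of 30 UMIs through their level in the library labelled HHcy. The count of members called there is therefore no result apart from those levels. Within the cells rich in Gpnmb, 1 of 5 members was called higher in the library labelled HHcy (Gbp3, 1.09), with 4.73% of all genes, and 3 of 7 in WD (Ifi47 1.07, Gbp5 0.79 and Gbp7 0.67), with 2.82%. The Mmp13 cells had 30 UMIs for Gbp3 alone, which was not called in either comparison.

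Resident-like macrophages, which carry markers such as Lyve1 and Folr2, held 55.3%, 59.6% and 64.5% of the Iigp1 UMIs of the class. Iigp1 was at 40.2 CPM (34.1 to 47.0), 68.3 CPM (59.7 to 77.8) and 86.4 CPM (79.8 to 93.5) in them, and the order Ctrl, library labelled HHcy, WD had no overlapping intervals. The log2 ratios to Ctrl were 0.77 (0.47 to 1.07) and 1.10 (0.85 to 1.37). For the library labelled HHcy Gbp7 was also called (0.70), making 2 of 10 with 2.91% of all genes. For WD Irgm1 was called higher (0.63), making 2 of 10 with 2.86% of all genes, and Gbp5 lower (-0.63), with 2.67% of all genes. Of the 456 resident-like cells of the library labelled HHcy, 113 had 10 or more Apoe UMIs, and without them Iigp1 (0.77) and Gbp7 (0.59) were still called higher, 2 of 9 members with 2.94% of all genes. In classical monocytes, the blood-derived precursors of many macrophages, Iigp1 was at 5.86, 27.0 and 13.1 CPM. Its ratios there were 2.21 (1.45 to 3.03) and 1.16 (0.33 to 2.05). Gbp7 was also higher in the library labelled HHcy (0.88) and Igtp lower (-0.63), with 4.44% and 5.8% of all genes called higher and lower. Without 8 Apoe-rich cells the same 3 genes were called (Iigp1 2.08, Gbp7 0.86 and Igtp -0.62), with 4.48% and 5.66%. The WD call of Iigp1 stood beside 3.34% of all genes. In WD Gbp2 (106 to 58.4 CPM, -0.86) and Gbp3 (-0.73) were lower, with 5.56% of all genes.

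In non-classical monocytes, which patrol the vessel wall, the members called against Ctrl were lower. Gbp2 was at 58.9 CPM in Ctrl, 36.8 CPM in the library labelled HHcy and 28.3 CPM in WD, with log2 ratios of -0.68 (-1.11 to -0.27) and -1.05 (-1.46 to -0.66). Ifi47 (-0.85) and Irgm1 (-0.70) were also called lower for the library labelled HHcy, 3 of 8 members with 2.9% of all genes. Without 17 Apoe-rich cells these were Gbp2 (-0.72), Ifi47 (-1.20) and Irgm1 (-0.62), with 3.13% of all genes. Gbp5 (-1.23) and Gbp3 (-0.76) were called lower for WD, again 3 of 8, with 2.57% of all genes. The difference between subsets was not tested.

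Most Gbp2b UMIs of the macrophages came from 1 sub-cluster. The sub-cluster led by Prg4, Saa3 and Alox15, genes also known from macrophages of the body cavities, was 5.68% of the class in Ctrl, 6.31% in the library labelled HHcy and 4.41% in WD. It held 196 of 289, 194 of 230 and 273 of 323 Gbp2b UMIs of the class, or 67.8%, 84.3% and 84.5%. Its Gbp2b levels were alike, at 123 CPM (106 to 141), 132 CPM (115 to 153) and 123 CPM (109 to 139). In the library labelled HHcy Ifi47 (-0.97), Iigp1 (-0.81) and Gbp7 (-0.78) were among 4 of 10 members called lower there, beside 8.33% of all genes, and the fourth was Irgm2 (-1.25). In that library 36 of these 80 cells had 10 or more Apoe UMIs. Without them 2 of 10 members were called lower, at a member median of -0.73. The share over all genes was not computed without these cells. A sub-cluster led by Retnla and Lyz1 held Gbp2b at 54.1, 7.56 and 14.6 CPM, from 54, 3 and 9 UMIs.

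**Figure D4:**
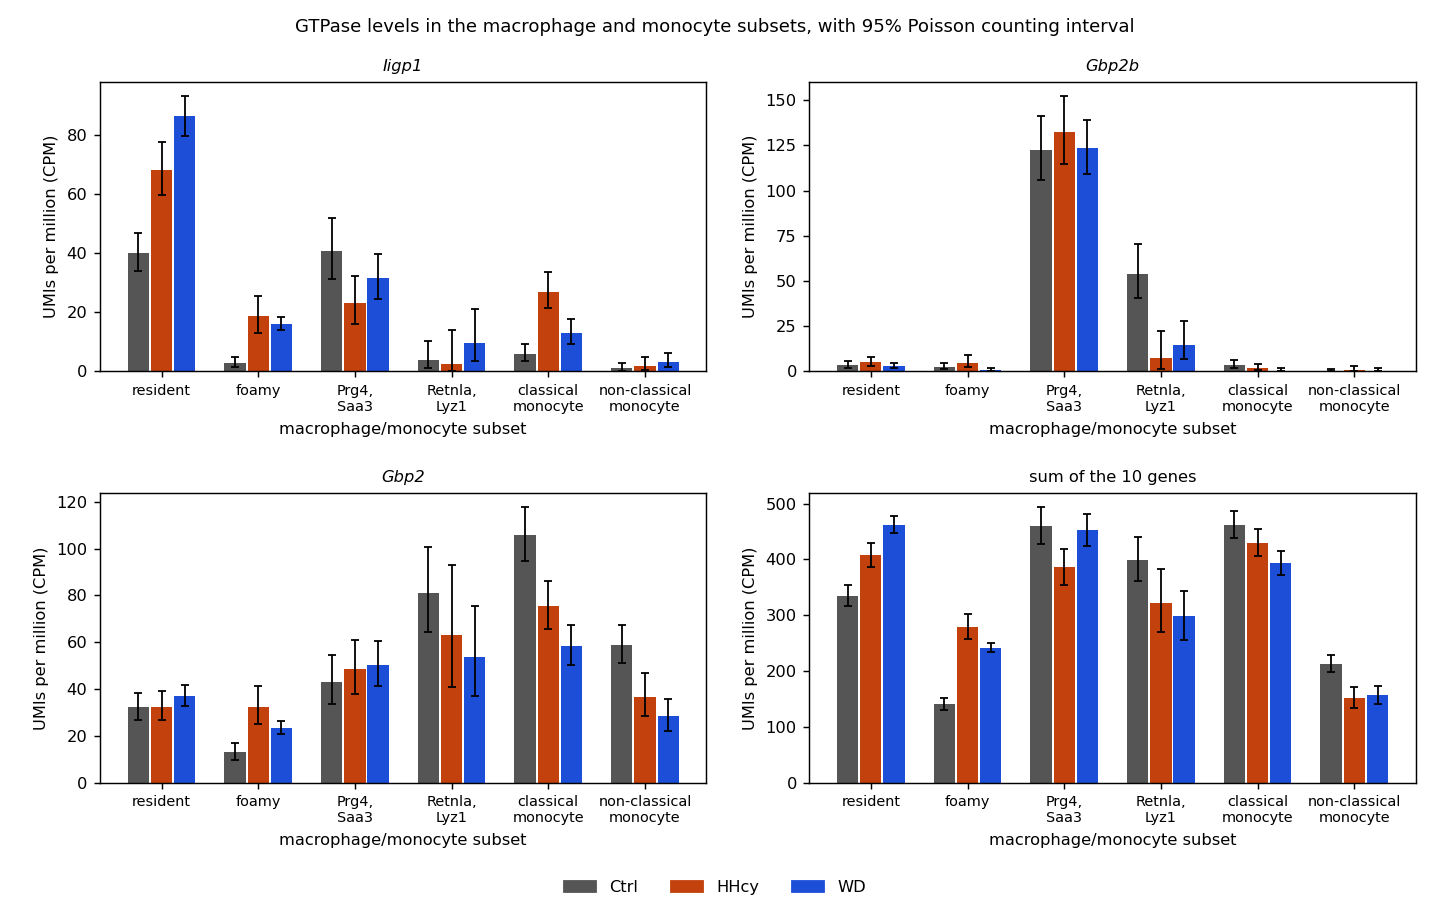
Levels of Iigp1, Gbp2b, Gbp2 and the sum of the 10 genes (CPM, bars with 95% Poisson intervals) in 6 macrophage and monocyte subsets of each library. Iigp1 was above Ctrl in the resident, foamy and classical monocyte sets of both other libraries, and Gbp2b was at 123 to 132 CPM in the cells led by Prg4 and Saa3.

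T cells were few, with 124 cells in Ctrl, 177 in the library labelled HHcy and 124 in WD, and the 10 genes summed to 387, 311 and 412 CPM. None of 7 members was called for the library labelled HHcy, with 3.04% of all genes called higher and 7.8% lower. Iigp1 was called higher in WD, at 48.7 CPM against 19.2 CPM (1.34, 0.42 to 2.37), 1 of 7 members with 4.21% of all genes. Of its 41 UMIs, 24 lay in 1 cell, and without the top cell of each library the ratio was 0.77 (-0.52 to 2.19) and no longer called. When cells took their class from their own marker UMIs it was -0.076. Against WD, Iigp1 was lower in the library labelled HHcy (-1.61), with 5.83% of all genes, a ratio that includes the same WD cell. In T cells led by Gzma and Gzmb, Gbp7 was at 238, 106 and 103 CPM and called lower in both other libraries (-1.16 and -1.21), beside 6.13% and 6.21% of all genes. Ctrl T cells also carried 2629 CPM of 5 erythroid markers, against 2.07 and 9.51 CPM in the other libraries, whose part in the levels was not tested.

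In conventional dendritic cells the 10 genes summed to 140, 129 and 179 CPM. Gbp2 was at 37.5, 23.5 and 33.2 CPM, with a log2 ratio of -0.68 (-1.02 to -0.34) for the library labelled HHcy, and Gbp5 at 12.2, 7.14 and 16.5 CPM (-0.77). Those 2 of 9 members were called lower there, with 3.18% of all genes, and Ifi47 was called higher (16.8 to 26.3 CPM, 0.65), with 4.98% of all genes. In WD Ifi47 (28.7 CPM, 0.77) and Igtp (15.3 CPM against 9.14 CPM, 0.74) were called higher, 2 of 9 with 5.34% of all genes. When cells took their class from their own marker UMIs, Ifi47 in WD was at -0.61 (-2.48 to 1.39). The median of the members was then -0.85 (-2.35 to 1.65), against 0.44. With thinned cells Ifi47 in the library labelled HHcy was at -0.25 (-2.15 to 1.43). Each of these intervals included equality and the value first given. Against WD, the library labelled HHcy was lower for Gbp5 (-1.21), Iigp1 (-1.21) and Gbp7 (-0.81), 3 of 9 members with 6.04% of all genes. Mature dendritic cells, which migrate to lymph nodes, were 17%, 13% and 26.1% of the class and held 66.1%, 59.8% and 57.5% of its Gbp2 UMIs. Gbp2 was at 191, 143 and 91.8 CPM in them, and called lower in WD (-1.06), with 5.91% of all genes. In the cross-presenting Xcr1 set, Ifi47 (1.31) and Irgm1 (0.95) were called higher in WD, 2 of 3 members with 4.13% of all genes. Ifi47 had 15 UMIs in Ctrl there and passed the limit of 30 UMIs through its 22 in WD. Its place among those 3 members is therefore no result apart from its levels. Neutrophil markers in the class were at 333, 1318 and 407 CPM, and their part was not tested.

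The dendritic class also held a sub-cluster led by the complement genes C1qa, C1qb and C1qc, which are macrophage genes, and one led by B cell genes such as Igkc. The former was 7.53% of the class in Ctrl, 3.97% in the library labelled HHcy and 18.6% in WD, and the 19 macrophage/monocyte markers, all detected, summed to 4099, 3788 and 6128 CPM in the class. It held 16.7%, 6.38% and 39.3% of the Igtp UMIs of the class, 19.0%, 10.5% and 34.2% of those of Ifi47, and 61.9%, 31.2% and 67.7% of those of Iigp1. Without both sub-clusters Ifi47 was still called higher in WD (0.72), as was Gbp5 (0.68), 2 of 8 members with 4.39% of all genes, while Igtp was not (0.55, 0.014 to 1.09). For the library labelled HHcy Gbp5 remained lower (-1.02), 1 of 7 with 3.28% of all genes, and neither Gbp2 (-0.53) nor Ifi47 (0.56) reached 1.5-fold. Against WD, Gbp5 (-1.70), Gbp3 (-0.60) and Gbp7 (-0.59) were lower in that library, 3 of 8 with 4.66% of all genes, and Iigp1 was not called (-0.35, -1.55 to 0.77).

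**Figure D5:**
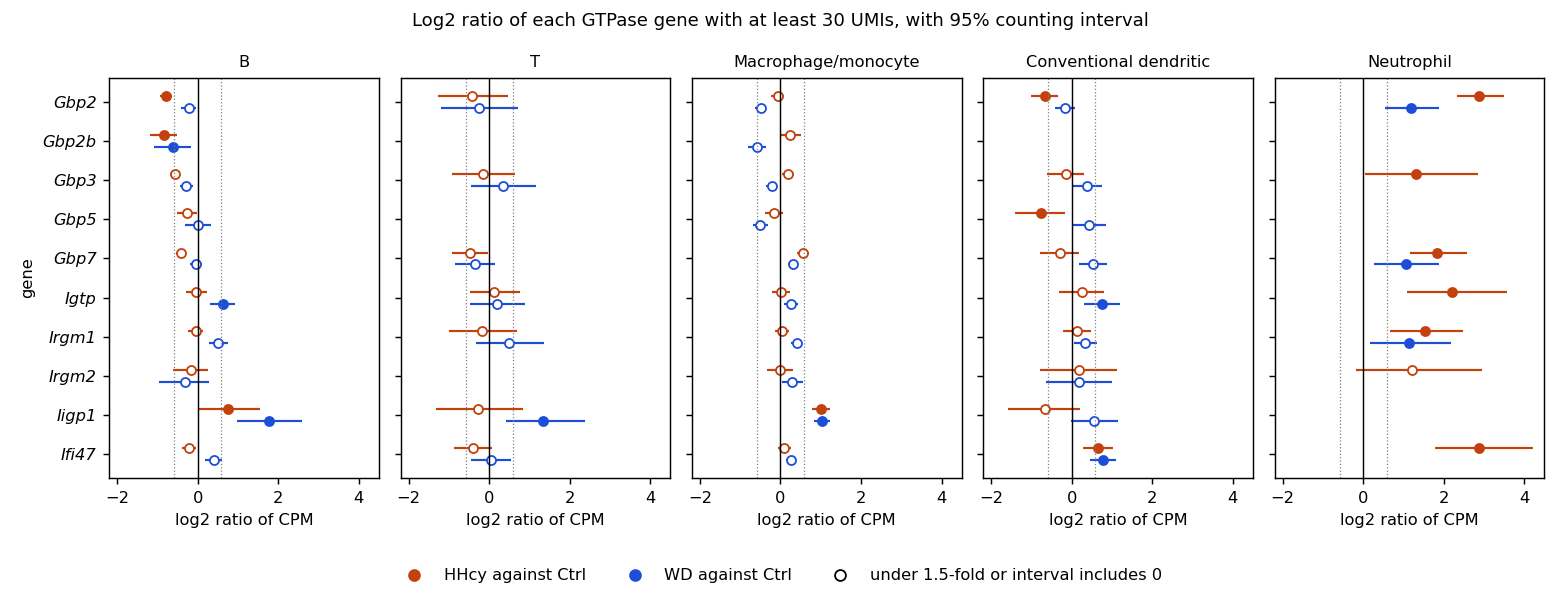
Log2 ratios of CPM for each GTPase with at least 30 UMIs in 5 classes, for the library labelled HHcy and for WD, each against Ctrl, with 95% counting intervals. Filled points are called (at least 1.5-fold, dotted lines, with an interval off 0), and in neutrophils 6 of the 7 ratios for the library labelled HHcy are filled on the right.

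The other 7 classes were small. Endothelial cells among the sorted CD45+ cells (11, 21 and 32 cells) had the highest summed level, at 1317, 748 and 1508 CPM, of which Iigp1 made 558, 254 and 315 CPM. Fibroblasts (30, 88 and 172 cells) were at 238, 266 and 644 CPM, and Iigp1 in them at 59.6, 56.4 and 229 CPM. In NK cells Iigp1 had 0 UMIs in each library, which allows up to 17.8, 19.3 and 17.3 CPM, whereas Gbp7 was at 101, 45.1 and 57.6 CPM in 19, 16 and 17 cells. Plasmacytoid dendritic cells were 3, 39 and 7, with sums of 76.2, 293 and 835 CPM from 2, 140 and 69 UMIs. Plasma cells were at 54.4, 99.8 and 136 CPM.

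The ligand of the pathway was found mainly in NK and T cells. Ifng was at 219, 174 and 236 CPM in NK cells and at 196, 58.8 and 154 CPM in T cells, and at or under 1.38 CPM in B cells, macrophages/monocytes, conventional dendritic cells and neutrophils. In T cells it was called lower in the library labelled HHcy (-1.74, -2.15 to -1.34), beside 7.8% of all genes. Of the 133 Ctrl UMIs 42 lay in 1 cell, and without the top cell of each library the ratio was -1.42 (-1.88 to -0.96). The make-up of the T cells differed as well: naive T cells, in which Ifng was at 13 to 36.0 CPM, were 19.4% of them in Ctrl, 35.6% in the library labelled HHcy and 14.5% in WD, and the cells led by Gzma and Gzmb 42.7%, 28.2% and 39.5%. Within the latter cells Ifng was at 365, 239 and 443 CPM, a log2 ratio of -0.61 (-1.16 to -0.063) for the library labelled HHcy. The receptor chain Ifngr1 was detected in all 5 classes, at 107, 126 and 132 CPM in neutrophils and 271, 286 and 234 CPM in macrophages/monocytes. The other chain, Ifngr2, was called higher in B cells of the library labelled HHcy, at 80.8 against 52.4 CPM (0.63), and was at 50.9, 76.0 and 71.3 CPM in neutrophils. Irf1, the factor that binds ISRE sites, was called lower in B cells of the library labelled HHcy (65.2 to 39.1 CPM, -0.74) and higher in WD neutrophils (89.9 to 153 CPM, 0.77). In neutrophils of the library labelled HHcy Irf1 was at 93.0 CPM, so Gbp2 and Irf1 had different orders over the libraries.

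Of 37 listed pathway genes, 29 had 30 UMIs in neutrophils for the library labelled HHcy, and 6 were called higher and 1 lower, beside 5.87% and 19.3% of all genes. The higher ones were Il18bp (1.36), which binds interleukin-18, the immunoproteasome subunits Psmb9 (1.01) and Psmb8 (0.84), the chemokine Cxcl10 (0.97), the inhibitor Socs3 (0.65) and Nos2, the inducible nitric oxide synthase, at 0 UMIs in Ctrl (up to 3.25 CPM allowed) and 36 UMIs (16.2 CPM) there. Nos2 passed the limit of 30 UMIs through the library labelled HHcy alone. Its place among the 29 genes is no result apart from those levels. Pias1, an inhibitor in the pathway, was lower (-0.65). In WD neutrophils 4 of 26 were called higher (Cxcl10 0.90, Irf1 0.77, Cd274 0.62 and Socs3 0.60), beside 5.97% of all genes, and 1 lower (Irf8, -1.56). In B cells of the library labelled HHcy 2 of 32 were higher (Ciita 0.67, the master factor of MHC class II, and Ifngr2) and 5 lower, beside 3.82% and 7.24% of all genes. The lower ones were the checkpoint ligand Cd274 (-0.78), Irf1, the kinase Jak2 (-0.67) and the inhibitors Socs1 (-0.62) and Socs3 (-0.60). In conventional dendritic cells the chemokine Cxcl9 was higher in both libraries (1.37 and 2.10), as was Serpina3g (1.37 and 1.14), making 2 of 32 for the library labelled HHcy and, with Batf2 and Cxcl10, 4 of 33 for WD, beside 4.98% and 5.34% of all genes. In T cells Irf8 (-1.63 and -1.73) and Nlrc5 (-0.90 and -1.0), the factor of MHC class I genes, were lower in both libraries, beside 7.8% and 4.06% of all genes. In macrophages/monocytes Serpina3g was the 1 of 33 called for the library labelled HHcy (1.04), beside 2.76% of all genes, and none of 33 was called for WD.

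Other GTPases of both families, whether interferon-induced or not, and genes of the type I response were read in the same way. In neutrophils of the library labelled HHcy both other GTPases with 30 UMIs were higher, Gbp9 (1.5) and 9930111J21Rik2 (0.86), where 5.87% of all genes were. Of the type I list, 16 of 21 genes were higher there, led by Ifit2 (3.99), Ifit1 (2.10), Ifit3 (2.07), Rsad2 (1.58) and Ifit3b (1.29), and 9 of 20 in WD, led by Ifit1 (1.48) and Rsad2 (1.43), beside 5.97% of all genes. In B cells of WD 18 of 22 type I genes were higher, led by Ifit3 (1.53), Ifit3b (1.49) and Ifit2 (1.39), beside 2.82% of all genes and the 2 of 10 GTPases given above. In macrophages/monocytes of WD 9 of 22 type I genes were higher, led by Ifit3b (1.15) and Ifit3 (1.10), beside 3.4% of all genes and Iigp1 alone among the 10. In conventional dendritic cells of WD 15 of 22 type I genes were higher, beside 5.34% of all genes. For the library labelled HHcy 3 of 21 were higher and 3 lower, beside 4.98% and 3.18%. The median log2 ratio of the type I genes was 0.79 in WD B cells and 0.88 in neutrophils of the library labelled HHcy. Of 13 other listed GTPases with 30 UMIs in macrophages/monocytes, 2 were higher and 1 lower in each comparison. Gm4951, a further immunity-related GTPase, was higher in both libraries (0.75 and 0.77), F830016B08Rik in the library labelled HHcy (0.70) and Gbp6 in WD (0.62), while Irgc1 was lower in both (-0.65 and -1.11). In these cells 2.76% and 3.4% of all genes were higher and 2.69% and 3.7% lower. Gm4951 was also higher in WD conventional dendritic cells (1.64). In B cells none of 10 was called for the library labelled HHcy and 2 of 10 were higher for WD, Tgtp2 (0.75) and Gbp6 (0.62), beside 2.82% of all genes. In T cells Gbp4 was lower in both libraries (-0.95 and -0.84), and Gbp8 in the library labelled HHcy (-0.68), which made 2 and 1 of 5, beside 7.8% and 4.06% of all genes.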

How the data were processed

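Live CD45+ cells of mouse aorta were profiled in 1 library per group, and the files hold UMI counts per gene and barcode that the authors deposited. Per the file headers the counts come from Cell Ranger 4.0.0, whereas the submitters' processing notes name Cell Ranger 2.2.0 and mm10; the annotation is not given in the sources used here. Barcodes with at least 200 genes and at most 10% mitochondrial UMIs were kept (6038, 8155 and 6710). Those with markers of more than 1 of 5 lineages were left out as doublets (11.1%, 21.8% and 21.0%), without a doublet caller. Clusters (Leiden, resolution 1, and 0.5 within classes, seed 1, leidenalg 0.10.2, scikit-learn 1.9.0), made without the 10 GTPases, were named by marker lists. UMIs were summed per class and library and given as CPM with exact Poisson intervals. Ratios carry exact conditional binomial intervals (scipy 1.17.1). Shares carry exact Clopper-Pearson intervals. All intervals, at 95%, cover counting error only. The ratio script was tested on simulated data.

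Named genes are the 10 GTPases, Ifng, Ifngr1, Ifngr2 and Irf1, at most 5 genes per list and comparison with the largest called ratio, and the 10 genes most alike in pattern; some genes under this rule are not reported here. The members and lists were chosen with earlier results of these data known. A few genes beyond this rule (Socs3 in B cells, further genes in T and dendritic cells) were named after their values were seen. Of the listed genes, Gbp11, Gm12250, Mx1 and Mx2 matched no row by symbol. Promoter sequences are from RefSeq (GRCm38.p6), with 9 of 10 members searched and Iigp1, on chromosome 18, left out.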

Additional observations from a re-analysis of the deposited data

Results flagged for a closer look

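For Gbp2, the library labelled HHcy stood above Ctrl in neutrophils and under it in 2 other classes. The log2 ratio was 2.88 in neutrophils against -0.792 in B cells, and 2.88 in neutrophils against -0.675 in conventional dendritic cells. Each counting interval lay off equality. With 1 library per group the difference between classes was not tested. In B cells the ratio was -0.12 with the same sub-cluster mix in both libraries, and in neutrophils it was 1.97 with the same mix and 0.94 with doublets kept.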

How the results depend on the processing

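No paired analysis was possible because each group was 1 library. The 10 class medians and 82 single-gene ratios were recomputed under 13 alternatives. All alternatives for neutrophils and conventional dendritic cells, the removal of Apoe-rich cells, of the top cell and of sub-clusters led by genes of another class (B and dendritic cells, 38 ratios, none of them reversed) and the split of the foamy set were chosen after seeing the data. All 82 ratios kept their direction and moved little under finer clustering, clustering of each library on its own, GTPases among the clustering genes and rescaling to the median gene. The filter on UMIs sets only which genes enter a median, so lifting it could not change a single-gene ratio. Thinning to 1000 UMIs reversed 3 and moved 24, and doublets kept reversed 2 and moved 12. Of the medians, that of B cells in the library labelled HHcy went from -0.24 to -0.60 when thinned. With doublets kept, that of macrophages/monocytes went from 0.059 to -0.12 and that of neutrophils from 1.84 to 0.43. In WD conventional dendritic cells the median of 0.44 became -0.85 when each cell was named by its own markers. Under that naming Irgm1 there became -1.24 (-2.21 to -0.27) and Ifi47 -0.61, and Iigp1 in WD T cells became -0.076. Of these only the interval of Irgm1 lay off equality. The same sub-cluster mix turned Gbp2b (0.10) and Gbp7 (0.19) in B cells of the library labelled HHcy and Gbp5 (-0.045) in WD conventional dendritic cells. Doublets kept turned Gbp3 (-0.17) in that library's macrophages/monocytes and Gbp2 in WD neutrophils (-0.27). Thinning turned Ifi47 in WD macrophages/monocytes (-0.0034), Ifi47 in conventional dendritic cells of the library labelled HHcy (-0.25) and Gbp7 in those of WD (-0.53), each with an interval that included equality. The cause was not tested. Without the top cell, Iigp1 in WD conventional dendritic cells was called higher (1.16). Neutrophil counts in Ctrl, at most 27 UMIs per GTPase, limit every ratio there.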
